A study of Homo sapiens with 18 samples.

Results

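The genes described are the class 3 semaphorins SEMA3A, SEMA3B, SEMA3C, SEMA3D, SEMA3E and SEMA3F and the receptor genes NRP1, NRP2, PLXNA1 and PLXNA2, in polyadenylated RNA of HAP1 cells. They were chosen by name, as members of a ligand and receptor family, and 9 of the 10 are described among the 20329 genes counted in every sample. These are 5 ligands and 4 receptors. SEMA3B was not analysed here. The list was drawn up with results of these data known, and the values that led to it are not recorded. The tests below were fitted over all genes and are therefore a description of these members, not independent evidence that the family responds.

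HAP1 is a near-haploid human line derived from chronic myeloid leukaemia cells, and its p53 function is impaired in every group. The study made 18 RNA samples in 6 groups of 3 to ask how transcripts change when cohesin, the ring that holds DNA loops, is no longer released by WAPL or is less well loaded by SCC4 (gene symbol MAU2). Set A comprised unedited controls (control A), ΔWAPL cells of clone 3.3, ΔSCC4 cells, and ΔWAPL/ΔSCC4 cells in which SCC4 was knocked out on top of the WAPL knockout of clone 3.3. Set B comprised unedited controls (control B) and ΔWAPL cells of clone 1.14. Every edited line was a clone carrying a drug-resistance cassette at the cut gene, blasticidin for WAPL and puromycin for SCC4, so the edit, the clone and the cassette cannot be told apart. Only the control titles carry the letter of the set, and the edited samples were placed in their set by the sequencing run named with each sample's counts. Nothing says that the 3 samples of a group were separate cultures, so the p-values measure the spread between these samples, which may be technical.

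Class 3 semaphorins are secreted guidance cues. They bind neuropilins, which have almost no signalling part of their own and hold the ligand next to a plexin A co-receptor, whose intracellular domain acts on small GTPases, integrins and the cytoskeleton. SEMA3A acts mainly through NRP1 and SEMA3F mainly through NRP2, SEMA3C can use both, and SEMA3E binds plexin D1 directly. The family is best known for repelling growing axons and for restraining sprouting blood vessels, and neuropilins also serve as co-receptors for VEGF. In epithelial and tumour lines the same genes act on migration and adhesion.

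The edits that define the groups were directed by a pair of guides, shown because every comparison below rests on them. Both match their gene exactly on GRCh37, with the whole guide in capitals.
WAPL guide: GCGTTCCATAGTATCCTGTA
SCC4 guide: GTACGGGCCTCGATGCGCTG
The WAPL guide lies at chr10:88259863-88259882 on the plus strand, where it is followed by TGG, and falls in the coding part of WAPL exon 3 (of 19). The SCC4 guide lies at chr19:19431849-19431868 on the minus strand, where it is followed by CGG, and falls in the coding part of MAU2 exon 1 (of 19).

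Total counts on genes ranged from 10007646 to 20711127 per sample, with a median of 16177867. Levels are given as CPM, counts scaled to a common library size with TMM factors. MAU2 fell from 61.3 to 72.7 CPM in control A to 0.509 to 0.975 CPM in ΔSCC4 and 0.848 to 1.04 CPM in ΔWAPL/ΔSCC4. WAPL RNA was lowered rather than lost, at 40.3 to 50.2 CPM in ΔWAPL 3.3, 41.0 to 48.5 CPM in ΔWAPL/ΔSCC4 and 38.0 to 43.5 CPM in ΔWAPL 1.14 against 78.1 to 131 CPM in the 6 controls. Endothelial markers summed to at most 0.512 CPM and haematopoietic markers to at most 0.450 CPM in any sample, with none of the 6 and 7 genes above the filter on low counts, so the defining genes of these cell types were at or near 0, those of the blood lineage included. Of 8 neuronal markers 3 passed the filter (SYP, MAP2 and TUBB3). Their list summed to between 22.7 and 41.3 CPM in 5 groups and to 11.1 to 11.9 CPM in ΔWAPL/ΔSCC4, where MAP2 stood at 2.78 ± 0.789 CPM (SD, n = 3) against 18.3 ± 4.49 CPM in control A. MAP2 also differed in set B, at 31.9 ± 0.604 CPM in ΔWAPL 1.14 against 16.2 ± 2.51 CPM in control B. It was at 22.2 ± 3.5 CPM in ΔWAPL 3.3. SYP and TUBB3 did not rise with MAP2 in either clone. The median log2 fold change of the 3 tested markers was -0.29 in ΔWAPL 1.14 and -0.1 in ΔWAPL 3.3, against 0.97 and 0.26 for MAP2. The part of MAP2 in the results below was not tested. In bulk RNA, fewer cells that express a gene and less RNA per cell cannot be told apart.

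SEMA3A was the member that rose past the threshold of the test in both ΔWAPL clones, and SCC4 loss lowered it with and without WAPL. SEMA3F was also above its controls in every sample of both clones. Its log2 fold changes were 0.56 in clone 3.3 and 0.37 in clone 1.14, and only the latter passed. In ΔWAPL 3.3, 2 of 9 members passed the test (edgeR adjusted p under 0.05), against 8.07% of all genes tested, and both were ligands that rose, SEMA3A and SEMA3C, where 4.17% of all genes rose. In ΔWAPL 1.14, 6 of 9 passed against 20.1% of all genes, with SEMA3A, SEMA3F and PLXNA1 higher and NRP1, NRP2 and PLXNA2 lower. In 1 fit over the 18 samples, 4 members passed in ΔWAPL 3.3 and 3 in ΔWAPL 1.14, against 1753 and 1788 of 12976 genes. The separate fits therefore do not rank the clones. In ΔSCC4, 6 of 9 passed against 9.49% of all genes. Among these 6, the ligands SEMA3A, SEMA3C and SEMA3D were lower and the receptors NRP1, NRP2 and PLXNA2 higher. The ligands SEMA3E and SEMA3F, at 0.39 and -0.07, did not pass in these samples. Blocked by replicate number, which paired these samples, 8 of 9 passed against 46.0% of all genes, and SEMA3E and PLXNA1, both higher, were the additions. In ΔWAPL/ΔSCC4 against control A, 7 of 9 passed against 7.95% of all genes, with SEMA3F higher and SEMA3A, SEMA3C, SEMA3D, SEMA3E, NRP1 and PLXNA2 lower. Against its own background, ΔWAPL 3.3, the double knockout had 4 of 9 members past the threshold, against 10.6% of all genes, and these were the 4 ligands of 7q21, all lower, where 4.55% of all genes fell. None of the 4 receptors passed in that comparison or in ΔWAPL 3.3 by edgeR, where 1 and 2 had an unadjusted p under 0.05 and DESeq2 called 0. The 3 comparisons with control A share those 3 samples and are not independent of each other. The unedited sets differed in 1 member, NRP2, against 0.640% of all genes. SEMA3C passed the filter in the comparisons with SCC4 knocked out only through the group in which it was high and had to differ there, and leaving it out gives 5, 6 and 3 members in ΔSCC4, in ΔWAPL/ΔSCC4 against control A and in ΔWAPL/ΔSCC4 against ΔWAPL 3.3. Single libraries also moved these counts. In ΔWAPL 3.3 it was 4 without control A replicate 1 and 1 without control A replicate 2 or ΔWAPL 3.3 replicate 2, and in ΔWAPL 1.14 it was 3 without ΔWAPL 1.14 replicate 2. In ΔWAPL/ΔSCC4 against control A it was 3 without control A replicate 2 and 2 without double knockout replicate 1 or 3. Between the unedited sets it was 0 without control A replicate 1 or 2 and 2 without control B replicate 3. The ligands' median log2 fold change was 0.56 in ΔWAPL 3.3 and 0.33 in ΔWAPL 1.14. It was -1.34 in ΔSCC4 and -0.83 in ΔWAPL/ΔSCC4 against control A. The median over all genes tested rounded to 0 in each of these comparisons. The ligand medians include SEMA3C. In ΔSCC4, SEMA3A, SEMA3D, SEMA3E and SEMA3F were at -1.34, -1.64, 0.39 and -0.07. In ΔWAPL/ΔSCC4 against control A they were at -0.75, -1.08, -0.83 and 0.63.

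**Figure D1:**
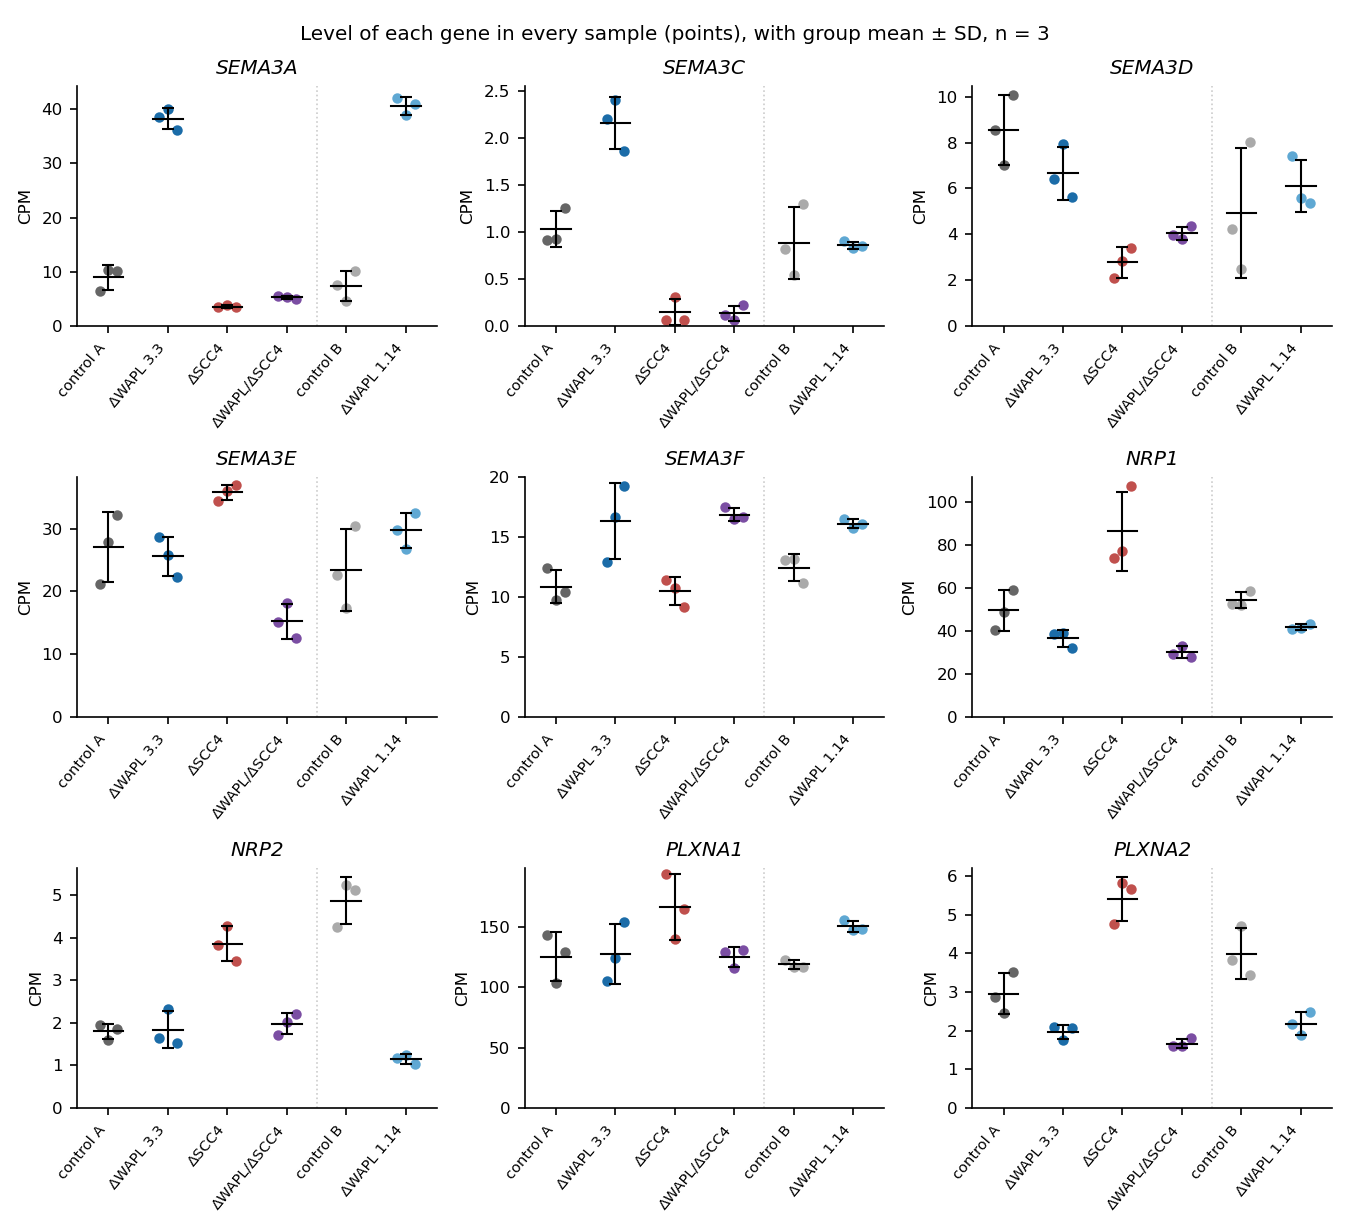
Level of each of the 9 genes in CPM (y axis, linear from 0) in the 18 samples, grouped by genotype on the x axis; each point is a sample, the horizontal line the group mean and the bar the SD of 3 samples, with the dotted line between set A and set B. SEMA3A lies between 36.2 and 42.1 CPM in the 6 ΔWAPL samples and at or below 10.3 CPM in all others, while NRP2 is higher in control B than in control A.

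The first ligand, SEMA3A (ENSG00000075213), is the prototype repellent of axons. It spans 537 kb of the minus strand of chromosome 7 (GRCh37, 83585093 to 84122040). It stood at 6.38, 10.3 and 10.2 CPM in control A and at 38.5, 40.0 and 36.2 CPM in ΔWAPL 3.3. In set B it stood at 7.66, 4.57 and 10.1 CPM in the controls and at 42.1, 38.9 and 41.0 CPM in ΔWAPL 1.14. Every ΔWAPL sample was above every control, and the ranges of the clones overlapped each other. The log2 fold change was 2.08 ± 0.18 (SE; 4.22-fold, adjusted p = 2.02e-06) in clone 3.3 and 2.43 ± 0.23 (5.40-fold, adjusted p = 0.000414) in clone 1.14, and the difference between these effects, -0.34 ± 0.31, did not pass the test (adjusted p = 0.797). Both calls held without any 1 of the 6 samples, with log2 fold changes from 1.89 to 2.18 and from 2.18 to 2.72.

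In cells without SCC4, SEMA3A stood at 3.45, 3.87 and 3.46 CPM. These values lay below every control A sample, and the log2 fold change was -1.34 ± 0.22 (2.53-fold lower, adjusted p = 0.00264). In ΔWAPL/ΔSCC4 it stood at 5.58, 5.41 and 4.98 CPM, between ΔSCC4 and control A with no overlap with either group. Removing SCC4 from ΔWAPL cells lowered SEMA3A by 7.18-fold, from a mean of 38.3 to 5.32 CPM (log2 fold change -2.84 ± 0.14, adjusted p = 8.81e-10), and this call held without any 1 sample. Against control A the double knockout was lower, with a log2 fold change of -0.75 ± 0.19 (adjusted p = 0.0331). That call was lost without control A replicate 2 or 3 and without each of the double knockout replicates in turn, with adjusted p from 0.0573 to 0.169 and log2 fold changes from -0.78 to -0.64, and also with the controls of both sets pooled (-0.63, adjusted p = 0.137).

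SEMA3C (ENSG00000075223), which acts on migration in the heart outflow tract and in several tumour types, was the least abundant member by CPM in the cells without SCC4. It lies at 80371854 to 80551675 of chromosome 7, on the minus strand. It had 14, 15 and 21 counts in control A and 44, 34 and 28 counts in ΔWAPL 3.3, or 0.912, 0.925 and 1.25 CPM against 2.19, 2.40 and 1.86 CPM. It had 1, 3 and 1 counts in ΔSCC4 and 2, 1 and 4 counts in ΔWAPL/ΔSCC4. The groups with and without SCC4 did not overlap in set A. In summed counts, ΔSCC4 held 12.2% of the control A level (exact 95% counting interval 3.79% to 30.4%) and ΔWAPL/ΔSCC4 held 6.31% of the ΔWAPL 3.3 level (2.48% to 13.5%). The interval covers counting error only. ΔWAPL/ΔSCC4 held 13.1% of the control A level (5.03% to 29.1%). Since the gene passed the filter only through the groups in which it was high, these ratios are a description.

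The rise of SEMA3C in clone 3.3, 1.04 ± 0.25 on the log2 scale (adjusted p = 0.0176), was lost without control A replicate 2 (0.96, adjusted p = 0.104) and without ΔWAPL 3.3 replicate 2 (0.95, adjusted p = 0.0943), and DESeq2 did not call it (adjusted p = 0.0898). In set B the gene stood at 0.821, 0.538 and 1.29 CPM in controls and at 0.901, 0.831 and 0.845 CPM in ΔWAPL 1.14, inside the range of the controls. The difference between the clones' effects, 1.13 ± 0.39, did not pass the test (adjusted p = 0.223).

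SEMA3D (ENSG00000153993), a ligand known from cardiac and vascular patterning, spans 84624869 to 84816372 of chromosome 7 on the minus strand. It stood at 8.53, 7.03 and 10.1 CPM in control A and at 2.08, 2.85 and 3.39 CPM in ΔSCC4, with no overlap (log2 fold change -1.64 ± 0.23, adjusted p = 0.000998). The double knockout stood at 3.98, 3.81 and 4.36 CPM, below control A (-1.08 ± 0.17, adjusted p = 0.0025) and below ΔWAPL 3.3, which had 6.43, 7.92 and 5.65 CPM (-0.71 ± 0.17, adjusted p = 0.0111). The call against control A was lost with the controls of both sets pooled (-0.74, adjusted p = 0.27). That against ΔWAPL 3.3 was lost without ΔWAPL 3.3 replicate 2 (-0.57, adjusted p = 0.0926) and in 1 fit over the 18 samples (-0.71, adjusted p = 0.133). WAPL loss did not move SEMA3D past the threshold in either clone. The controls of set B were spread widely, at 4.24, 2.49 and 8.05 CPM, around ΔWAPL 1.14 at 7.42, 5.58 and 5.37 CPM. Without control B replicate 3 the rise in clone 1.14 was 0.86 (adjusted p = 0.033) in place of 0.29 (adjusted p = 0.594). That same library also held the highest SEMA3A, SEMA3C and SEMA3E levels of its group.

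SEMA3E (ENSG00000170381), the plexin D1 ligand that restrains vessel growth, spans 82992554 to 83278455 of chromosome 7 on the minus strand. It was the 7q21 ligand that did not fall in ΔSCC4. Its levels were 21.2, 27.9 and 32.2 CPM in control A and 34.5, 35.9 and 36.9 CPM in ΔSCC4, where all 3 samples were above the controls, but the difference of 0.39 ± 0.16 did not pass the test (adjusted p = 0.189). It passed when samples were blocked by replicate number (0.40, adjusted p = 0.00523). In ΔWAPL/ΔSCC4 it stood at 15.2, 18.1 and 12.6 CPM, below control A (-0.83 ± 0.18, adjusted p = 0.0181) and below ΔWAPL 3.3 at 28.6, 25.8 and 22.3 CPM (-0.74 ± 0.15, adjusted p = 0.0037). The call against control A was lost without control A replicate 2 and without double knockout replicate 1 or 3 (adjusted p from 0.0591 to 0.102, log2 fold changes from -0.82 to -0.70), while that against ΔWAPL 3.3 held without any 1 sample. In set B the controls had 22.6, 17.4 and 30.4 CPM and ΔWAPL 1.14 had 29.8, 26.8 and 32.5 CPM, ranges that overlapped. Without control B replicate 3 this difference passed the test (0.56, adjusted p = 0.0175, in place of 0.33 and 0.242).

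SEMA3F (ENSG00000001617), the NRP2 ligand first studied as a candidate tumour suppressor, lies away from the others on the plus strand of chromosome 3 (50192478 to 50226508). It stood at 12.4, 9.74 and 10.4 CPM in control A, 13.0, 16.7 and 19.3 CPM in ΔWAPL 3.3, 11.4, 10.8 and 9.19 CPM in ΔSCC4 and 17.5, 16.5 and 16.7 CPM in ΔWAPL/ΔSCC4. In set B it stood at 13.1, 13.2 and 11.1 CPM in controls and 16.5, 15.7 and 16.1 CPM in ΔWAPL 1.14. All 9 samples without WAPL were above the controls of their set, and ΔSCC4 overlapped control A. The rise passed the test in ΔWAPL/ΔSCC4 (0.63 ± 0.14, adjusted p = 0.0191) and in ΔWAPL 1.14 (0.37 ± 0.09, adjusted p = 0.0291), and missed it in ΔWAPL 3.3 (0.56 ± 0.19, adjusted p = 0.0927). The call in ΔWAPL 1.14 was lost without control B replicate 1 or any ΔWAPL 1.14 replicate (adjusted p up to 0.107), by DESeq2 (0.064) and in 1 fit over the 18 samples (0.0824), and that in the double knockout was lost without control A replicate 2 or double knockout replicate 1 or 3 (up to 0.119). The difference in ΔWAPL 3.3 passed the test without control A replicate 1 (0.68, adjusted p = 0.0205) or ΔWAPL 3.3 replicate 1 (0.72, adjusted p = 0.0276), without a filter (0.57, adjusted p = 0.0453) and in 1 fit over the 18 samples (0.58, adjusted p = 0.00679).

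**Figure D2:**
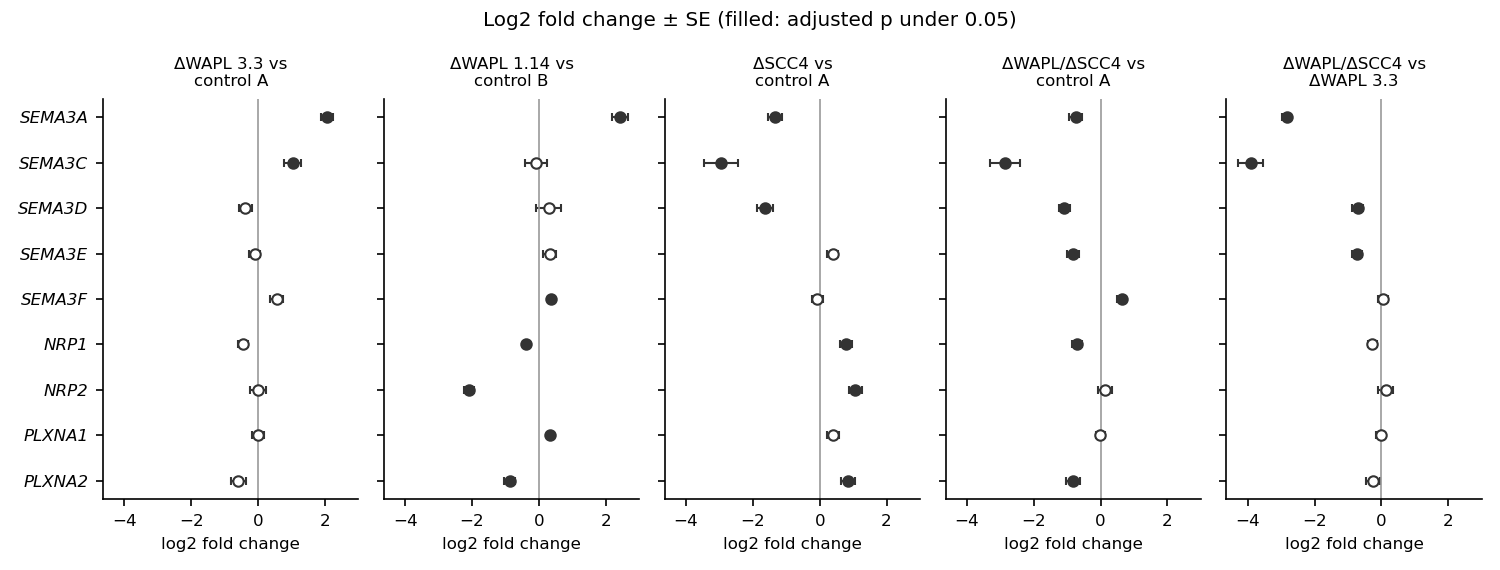
Log2 fold change (x axis) of the 9 genes in 5 comparisons, 1 panel each; points are edgeR estimates, bars are ± 1 SE, and filled points passed an adjusted p of 0.05. SEMA3A is at 2.08 and 2.43 in the ΔWAPL panels and negative in the 3 panels with SCC4 knocked out, and the receptors lie at or above 0.40 in the ΔSCC4 panel alone.

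To compare ligands with each other, CPM were divided by the exon length of each gene in kb and summed over the 5 ligands and SEMA3G, a class 3 semaphorin outside the list. The summed level was 7.87 ± 0.739 CPM per kb in control A and 7.10 ± 1.26 in control B, and rose to 11.97 ± 0.445 in ΔWAPL 3.3 and 12.4 ± 0.606 in ΔWAPL 1.14 (SD, n = 3), with every ΔWAPL sample above every control. It was 7.56 ± 0.0602 in ΔSCC4 and 6.58 ± 0.374 in ΔWAPL/ΔSCC4. SEMA3E was the largest single share in control A (40.5%), SEMA3E and SEMA3F held 38.7% and 37.5% in control B, and SEMA3A held 12.2% and 11.1%. In ΔWAPL cells SEMA3A became the largest share on average, at 34.5% ± 1.55 in clone 3.3 and 35.4% ± 0.398 in clone 1.14, although in ΔWAPL 3.3 replicate 3 SEMA3F held 33.6% against 32.9% for SEMA3A. In ΔSCC4 SEMA3E held 56.0% ± 1.95 and SEMA3A 5.13% ± 0.303. In ΔWAPL/ΔSCC4 SEMA3F held 53.3% ± 3.02, SEMA3E 27.4% ± 3.78 and SEMA3A 8.74% ± 0.137. The make-up thus differed between the groups even where the summed level was alike. These shares are a description and no test was run on them.

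**Figure D3:**
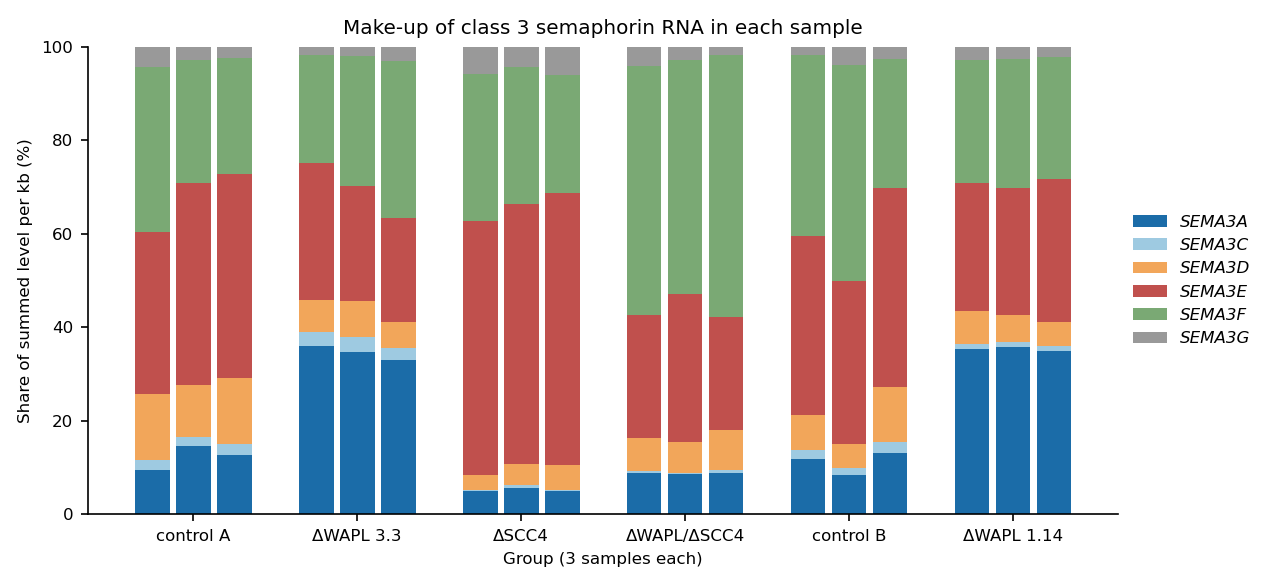
Share of each of 6 class 3 semaphorins in their summed level per kb of exon (y axis, percent), 1 stacked bar for each of the 18 samples, grouped by genotype. SEMA3A takes 32.9% to 36.0% of the bar in the 6 ΔWAPL samples and 4.95% to 14.6% elsewhere.

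NRP1 (ENSG00000099250) encodes the receptor that holds SEMA3A and VEGF, and lies on the minus strand of chromosome 10 (33466420 to 33625190). It stood at 40.6, 49.0 and 59.4 CPM in control A and at 74.2, 77.5 and 107.8 CPM in ΔSCC4, with no overlap (0.79 ± 0.19, adjusted p = 0.0248). In ΔWAPL/ΔSCC4 it stood at 29.6, 33.3 and 28.2 CPM, below every control A sample (-0.71 ± 0.15, adjusted p = 0.0153). In ΔWAPL 1.14 it stood at 40.9, 41.3 and 43.4 CPM against 52.6, 52.0 and 58.9 CPM in control B (-0.39 ± 0.07, adjusted p = 0.00739). ΔWAPL 3.3, at 38.8, 39.1 and 32.1 CPM, lay below control A without passing the test (-0.45 ± 0.16, adjusted p = 0.12). NRP1 thus moved against SEMA3A in ΔSCC4 and in ΔWAPL 1.14 and with it in ΔWAPL/ΔSCC4. The call in ΔSCC4 was lost without control A replicate 2 (0.77, adjusted p = 0.12), that in ΔWAPL 1.14 without ΔWAPL 1.14 replicate 2 (-0.36, adjusted p = 0.0512), in 1 fit over the 18 samples (adjusted p = 0.1) and with pooled controls (0.0874), and that in the double knockout without control A replicate 2 or double knockout replicate 1 or 3 (adjusted p from 0.0566 to 0.0999). Without control A replicate 1 the difference in ΔWAPL 3.3 passed the test (-0.57, adjusted p = 0.0147), as it did with pooled controls (-0.52, adjusted p = 0.0212).

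NRP2 (ENSG00000118257), the neuropilin preferred by SEMA3F, lies on the plus strand of chromosome 2 (206546714 to 206662857). It was the member in which the unedited sets differed. It stood at 1.95, 1.60 and 1.85 CPM in control A and at 4.24, 5.24 and 5.12 CPM in control B (1.42 ± 0.18, adjusted p = 0.0129), a difference that lost its call without control A replicate 1 (1.50, adjusted p = 0.0637) or 2 (1.37, adjusted p = 0.147). ΔWAPL 1.14 had 1.17, 1.25 and 1.03 CPM, 4.24-fold below its controls (-2.09 ± 0.15, adjusted p = 0.000134). ΔWAPL 3.3 had 1.65, 2.34 and 1.53 CPM, a range that included control A (adjusted p = 0.996). The effects of WAPL loss in the clones therefore differed, by 2.09 ± 0.28 (adjusted p = 0.000509), where 2.65% of all genes differed, and clone and set cannot be told apart in that difference.

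In ΔSCC4, NRP2 stood at 3.84, 4.28 and 3.46 CPM, above every control A sample (1.07 ± 0.20, adjusted p = 0.00629) and in the range of control B at its upper end, where 1 sample passed the lowest control B sample. When the controls of both sets were pooled, the difference fell to 0.19 and did not pass the test (adjusted p = 0.743). ΔWAPL/ΔSCC4 had 1.71, 2.03 and 2.21 CPM and overlapped control A (0.13 ± 0.20, adjusted p = 0.83). NRP2 had between 17 and 91 counts per sample.

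PLXNA1 (ENSG00000114554), a signalling co-receptor of the neuropilins on chromosome 3 (126701536 to 126756232, plus strand), was the most abundant member and the least variable between group means, by 1.40-fold. It ranged from 103.6 CPM in control A replicate 2 to 194.4 CPM in ΔSCC4 replicate 1. It stood at 155.9, 147.3 and 148.6 CPM in ΔWAPL 1.14 against 123.0, 117.0 and 117.0 CPM in control B (0.33 ± 0.05, adjusted p = 0.00442), a call lost in 1 fit over the 18 samples (adjusted p = 0.128) and with pooled controls (0.0579). ΔWAPL 3.3, at 105.1, 124.1 and 154.0 CPM, and ΔWAPL/ΔSCC4, at 129.2, 116.0 and 131.0 CPM, overlapped control A at 143.3, 103.6 and 129.5 CPM. ΔSCC4 stood at 194.4, 140.4 and 165.0 CPM, which overlapped control A, and the difference of 0.40 ± 0.17 did not pass the test (adjusted p = 0.189). It passed when samples were blocked by replicate number (0.40, adjusted p = 0.000133) and without control A replicate 1 (0.51, adjusted p = 0.0455), in 1 fit over the 18 samples (0.41, adjusted p = 0.0475) and with pooled controls (0.44, adjusted p = 0.0304).

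PLXNA2 (ENSG00000076356), another plexin A co-receptor, spans 208195587 to 208417729 of chromosome 1 on the minus strand. Its level was low, between 25 and 82 counts per sample. It stood at 2.87, 2.47 and 3.52 CPM in control A, 4.75, 5.80 and 5.67 CPM in ΔSCC4 and 1.59, 1.60 and 1.81 CPM in ΔWAPL/ΔSCC4, without overlap between these groups. It rose in ΔSCC4 (0.85 ± 0.20, adjusted p = 0.021) and fell in ΔWAPL/ΔSCC4 (-0.83 ± 0.20, adjusted p = 0.0331). In ΔWAPL 1.14 it stood at 2.17, 1.90 and 2.47 CPM against 3.83, 4.71 and 3.43 CPM in control B (-0.87 ± 0.17, adjusted p = 0.0129), and ΔWAPL 3.3, at 2.09, 1.77 and 2.06 CPM, missed the threshold (-0.59 ± 0.22, adjusted p = 0.14). The call in ΔSCC4 was lost without control A replicate 2 or ΔSCC4 replicate 2 (adjusted p = 0.124 and 0.0732), that in ΔWAPL 1.14 without ΔWAPL 1.14 replicate 1 or 2 (0.0553 and 0.0513) and with pooled controls (0.0513), and that in the double knockout without control A replicate 3 or any double knockout replicate (0.0696 to 0.15) and by DESeq2 (0.141). The difference in ΔWAPL 3.3 passed in 1 fit over the 18 samples (-0.57, adjusted p = 0.0398) and with pooled controls (-0.81, adjusted p = 0.0289).

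Over the 6 group means, the order of the members followed a few patterns. SEMA3A was lowest in ΔSCC4, then ΔWAPL/ΔSCC4, control B and control A, and highest in the ΔWAPL clones. The samples of neighbouring groups in that order overlapped except between ΔSCC4 and ΔWAPL/ΔSCC4 and between control A and ΔWAPL 3.3. NRP1 and PLXNA2 were lowest in ΔWAPL/ΔSCC4 and highest in ΔSCC4, and for NRP1 the samples of ΔSCC4 lay apart from those of control B, the next group. For SEMA3D the order ran from ΔSCC4 at 2.77 CPM to control A at 8.54 CPM, and only ΔSCC4 lay apart from the next group.

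Whether SCC4 loss acted alike with and without WAPL was tested as an interaction within set A. The effect in cells without WAPL minus that in cells with WAPL passed the threshold for 6 of 9 members, against 11.3% of all genes. For SEMA3A the fall was deeper without WAPL, with a difference of -1.50 ± 0.24 (adjusted p = 0.000679), starting from the raised level of ΔWAPL 3.3. For SEMA3D it was shallower, with a difference of 0.94 ± 0.28 (adjusted p = 0.0424). SEMA3E differed by -1.12 ± 0.23 (adjusted p = 0.00426), NRP1 by -1.05 ± 0.23 (adjusted p = 0.0077), NRP2 by -0.94 ± 0.28 (adjusted p = 0.0436) and PLXNA2 by -1.09 ± 0.26 (adjusted p = 0.0121). NRP1, NRP2 and PLXNA2 rose on SCC4 loss with WAPL present and had log2 fold changes of -0.27, 0.13 and -0.25 without it, none past the threshold. The differences of SEMA3A, SEMA3E, NRP1 and PLXNA2 held without any 1 of the 12 samples. That of SEMA3D was lost in 8 of the 12 omissions (adjusted p up to 0.116) and that of NRP2 in 9 (up to 0.155), and they were kept in 4 and 3. Both calls were also lost by DESeq2 (adjusted p = 0.0552 and 0.136), with the replicate block (0.0609 and 0.0671) and with at least 10 counts required in every sample (0.052 and 0.0572), each of which left 4 members, while SEMA3D lost its call in 1 fit over the 18 samples (0.164) and NRP2 without a filter (0.062). For SEMA3C, SEMA3F and PLXNA1 the differences were -0.94 ± 0.83, 0.13 ± 0.23 and -0.42 ± 0.23 and did not pass the test.

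**Figure D4:**
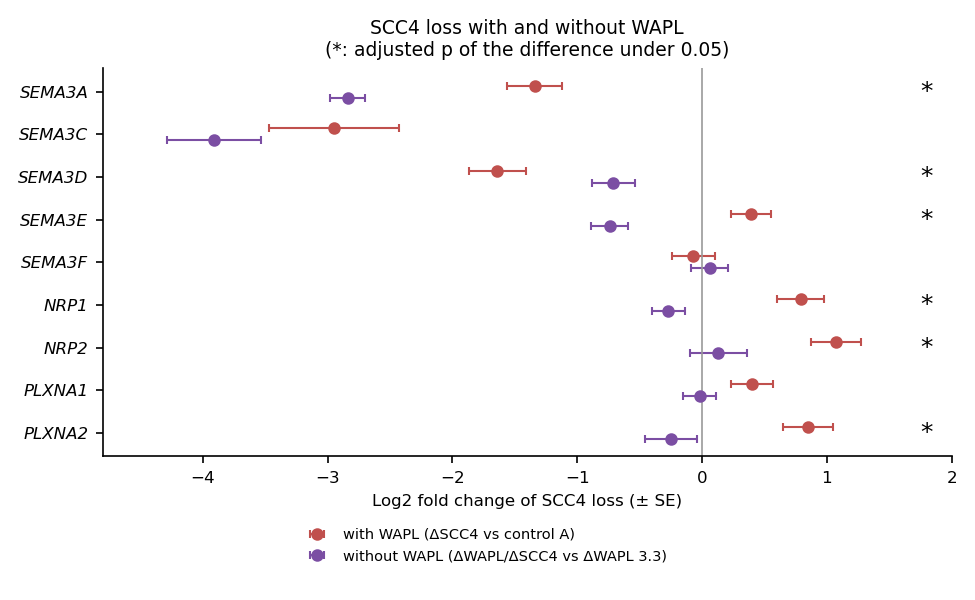
Log2 fold change of SCC4 loss (x axis, ± 1 SE) for the 9 genes in cells with WAPL (red, ΔSCC4 against control A) and without WAPL (purple, ΔWAPL/ΔSCC4 against ΔWAPL 3.3), with an asterisk where the difference passed an adjusted p of 0.05. The receptors NRP1, NRP2 and PLXNA2 sit at 0.79, 1.07 and 0.85 with WAPL and between -0.27 and 0.13 without it.

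The ligand genes SEMA3C, SEMA3E, SEMA3A and SEMA3D lie together on 7q21 in that order, all on the minus strand within 4.445 Mb. The gaps between them are 2441 kb, 307 kb and 503 kb. Of 6 further protein-coding genes of that place within 1 Mb of a member, 4 were tested. Of these 4, 1 passed in ΔWAPL 3.3, 1 in ΔWAPL 1.14 and 1 in ΔSCC4, against 8.07%, 20.1% and 9.49% of all genes. CD36, a fatty acid receptor 63.3 kb from SEMA3C, rose in ΔWAPL 3.3 (0.69 ± 0.16, adjusted p = 0.0115) and in ΔSCC4 (1.21 ± 0.16, adjusted p = 0.000697), where SEMA3C was nearly lost. CACNA2D1, a calcium channel subunit, rose in ΔWAPL 1.14 (1.44 ± 0.26, adjusted p = 0.00853). In the double knockout against ΔWAPL 3.3, CD36 (-1.08 ± 0.15, adjusted p = 8.17e-05), GNAI1 (-0.68 ± 0.17, adjusted p = 0.0192) and CACNA2D1 (-0.61 ± 0.14, adjusted p = 0.00945) fell with the 4 ligands, while PCLO, 200 kb from SEMA3E, was at -0.15 ± 0.16. Of the 4 neighbours, 3 thus fell, where 4.55% of all genes did. No neighbour passed the edgeR test in the double knockout against control A, and their median log2 fold change there was -0.22. Around SEMA3F on 3p21, 38 of 49 neighbours were tested, and 3 passed in ΔWAPL 3.3, 6 in ΔWAPL 1.14, 1 in ΔSCC4 and 1 in ΔWAPL/ΔSCC4 against control A, no larger a share of the 38 than the 8.07%, 20.1%, 9.49% and 7.95% of all genes.

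**Figure D5:**
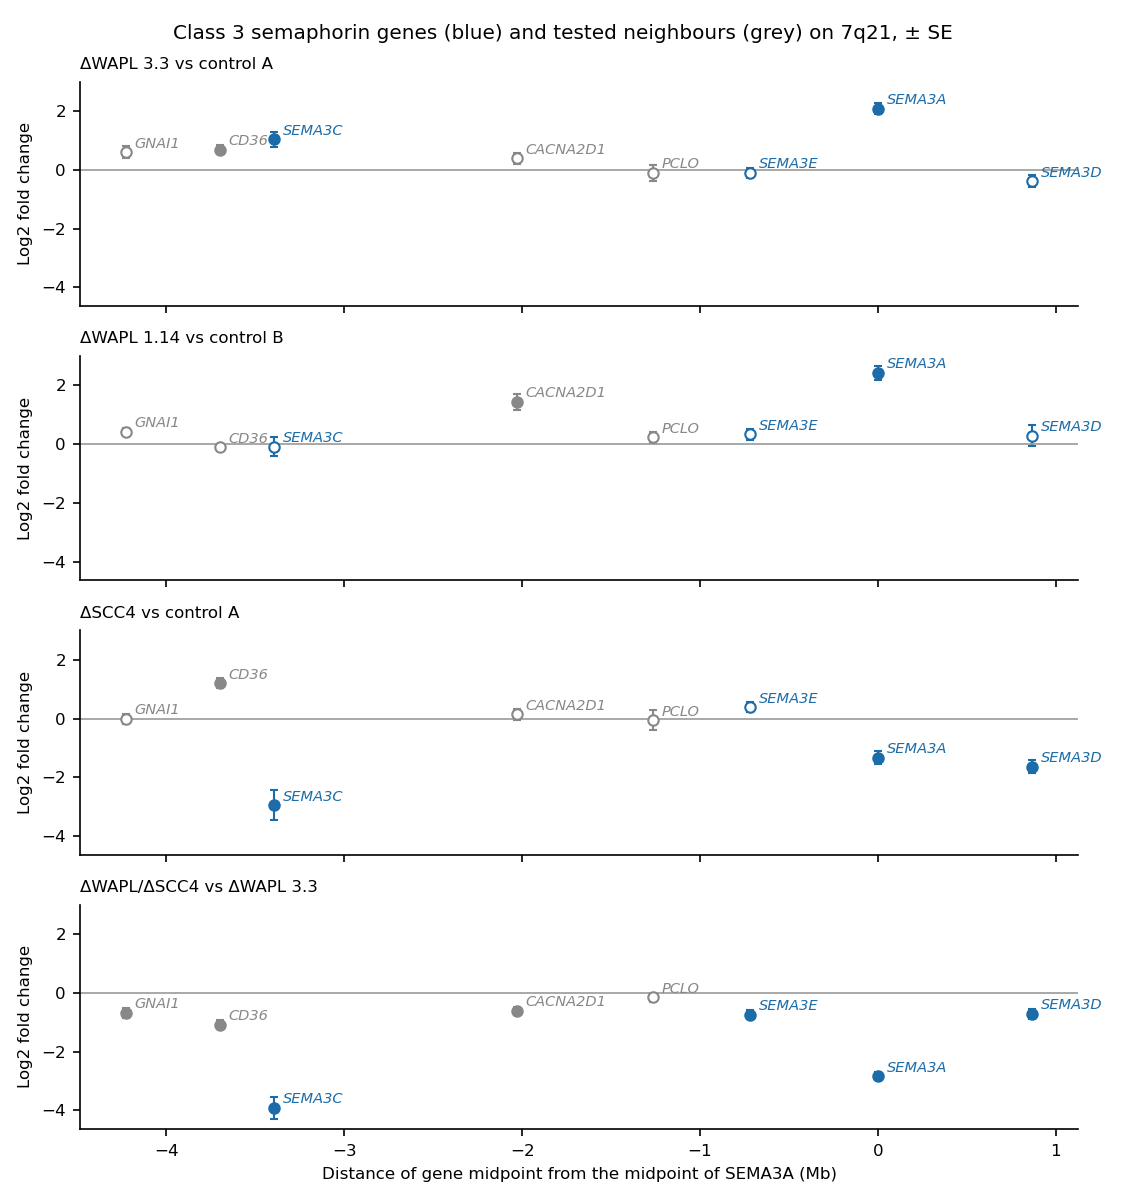
Log2 fold change (y axis, ± 1 SE) of the 4 class 3 semaphorin genes (blue) and 4 tested neighbours (grey) of 7q21 against the distance of each gene's midpoint from that of SEMA3A in Mb, 1 panel per comparison, filled where the adjusted p was under 0.05. SEMA3A stands apart from its nearest neighbours in both ΔWAPL panels. In the panel of ΔWAPL/ΔSCC4 against ΔWAPL 3.3, 7 of the 8 genes are filled and below 0, where 4.55% of all genes fell. SEMA3C, among the 7, passed the filter only through the group in which it was high.

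The promoters of 3 of these ligands are shown because their genes fell together when SCC4 was removed from ΔWAPL cells. That of PLXNA2, a receptor gene that rose on SCC4 loss with WAPL present (0.85), is shown with them. In that comparison SEMA3C and SEMA3D fell, while SEMA3E was higher (0.39) without passing the test. Of the 10 listed genes, 8 had an entry in the RefSeq promoter table (GRCh38.p14), and each was placed on GRCh37 by an exact match. The table was not matched for SEMA3A and NRP1. The 250 bases before the start site are given on the gene's strand, with capitals marking the GC box GGGCGG, the TATA box TATAAA and the CTCF core (CCANNAG directly followed by NNGGC) on either strand.
SEMA3C, chr7:80548368-80548617, minus strand: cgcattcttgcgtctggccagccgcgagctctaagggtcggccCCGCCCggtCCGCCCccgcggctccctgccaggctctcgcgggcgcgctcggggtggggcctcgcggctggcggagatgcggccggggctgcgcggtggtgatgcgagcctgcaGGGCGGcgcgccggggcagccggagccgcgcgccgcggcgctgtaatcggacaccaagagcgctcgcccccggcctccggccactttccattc
SEMA3D, chr7:84816373-84816622, minus strand: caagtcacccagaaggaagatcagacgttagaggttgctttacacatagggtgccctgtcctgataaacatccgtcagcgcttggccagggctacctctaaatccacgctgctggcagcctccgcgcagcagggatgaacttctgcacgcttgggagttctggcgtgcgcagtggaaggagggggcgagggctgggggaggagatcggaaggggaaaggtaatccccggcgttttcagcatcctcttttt
SEMA3E, chr7:83278456-83278705, minus strand: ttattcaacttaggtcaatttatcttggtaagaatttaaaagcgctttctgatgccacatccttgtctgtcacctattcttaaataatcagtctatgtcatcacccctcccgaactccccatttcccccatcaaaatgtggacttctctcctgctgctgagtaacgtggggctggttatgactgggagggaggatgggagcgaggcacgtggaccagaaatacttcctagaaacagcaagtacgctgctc
PLXNA2, chr1:208417730-208417979, minus strand: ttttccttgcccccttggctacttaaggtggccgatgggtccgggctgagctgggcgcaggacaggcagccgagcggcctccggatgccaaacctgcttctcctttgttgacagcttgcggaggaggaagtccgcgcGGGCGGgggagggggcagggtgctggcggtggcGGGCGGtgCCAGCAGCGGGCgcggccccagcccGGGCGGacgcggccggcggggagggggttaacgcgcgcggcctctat
SEMA3C has 3 GC boxes in a stretch of 77.6% GC with 39 CpG, a GC share above that of 93.8% of promoters. SEMA3D, at 57.6% GC with 13 CpG, and SEMA3E, at 46.4% GC with 6 CpG, hold none of the motifs, and the median over all promoters was 58.0% GC and 11 CpG. PLXNA2 holds 3 GC boxes and 1 match to the CTCF core. The promoter of NRP2, which also rose in ΔSCC4 (1.07) and is not shown, holds 3 GC boxes and no match to the CTCF core. Of 35114 promoter windows of the same length, 42.6% held a GC box, 10.7% a TATA box and 2.02% the CTCF core. A match is a description of letters and not evidence of binding.

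Family genes outside the list were examined in the same way. SEMA3G (1.21 ± 0.308 CPM in control A), PLXNA3 (77.1 ± 10.3 CPM) and PLXND1 (62.0 ± 8.26 CPM) were tested, and of these PLXND1, the SEMA3E receptor, passed in ΔWAPL 1.14 (-0.24 ± 0.06, adjusted p = 0.0262). By edgeR, none passed in ΔWAPL 3.3, ΔSCC4 or ΔWAPL/ΔSCC4 against control A, where 0, 1 and 0 had an unadjusted p under 0.05, and DESeq2 called none of them in any of the 4 comparisons with controls. SEMA3G did not overlap its controls in ΔSCC4 (0.77 ± 0.27, adjusted p = 0.112) or in ΔWAPL 1.14 (0.65 ± 0.26, adjusted p = 0.121), where it was higher in every sample without passing the test. PLXNA4 had at most 6 counts in a sample and was not tested. Of 13 semaphorins of other classes, all tested in the comparisons with controls, 2 fell in ΔWAPL 3.3 (8.07% of all genes passed), 4 fell and 2 rose in ΔWAPL 1.14 (20.1%), 2 fell and 1 rose in ΔSCC4 (9.49%), and 3 fell in ΔWAPL/ΔSCC4 (7.95%). SEMA6A, a transmembrane semaphorin, was at 175 ± 26.0 CPM in control A and fell in all 4 comparisons, with log2 fold changes of -1.08 ± 0.16 in ΔWAPL 3.3, -1.03 ± 0.06 in ΔWAPL 1.14, -0.96 ± 0.16 in ΔSCC4 and -0.54 ± 0.14 in ΔWAPL/ΔSCC4 (adjusted p from 4.01e-05 to 0.0392). SEMA4A is counted among those that fell in each comparison, but it passed the filter only through the controls and its levels are a description. They were 1.02 ± 0.458 CPM in control A, 1.50 ± 0.395 CPM in control B and between 0.0894 and 0.210 CPM on average in the edited groups.

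Among co-receptors that assemble with neuropilins and plexins, 5 of 7 listed genes were tested, and all 5 passed in each ΔWAPL clone, 3 higher and 2 lower, where 8.07% and 20.1% of all genes passed. In ΔSCC4, 2 of the 5 passed (9.49% of all genes), CHL1 higher and NRCAM lower. In ΔWAPL/ΔSCC4 against control A, 4 of the 5 passed (7.95% of all genes), 2 higher and 2 lower. There CHL1 lay below control A (-1.21 ± 0.20, adjusted p = 0.00296) and NRCAM above it (0.74 ± 0.17, adjusted p = 0.0222). CHL1, an L1-family adhesion molecule that couples to NRP1, rose from 30.3 ± 8.09 to 102 ± 13.0 CPM in ΔWAPL 3.3 (1.74 ± 0.19, adjusted p = 1.48e-05) and from 18.6 ± 5.85 to 131 ± 9.60 CPM in ΔWAPL 1.14 (2.81 ± 0.21, adjusted p = 0.000137), and fell by 2.96 ± 0.15 on the log2 scale when SCC4 was removed from ΔWAPL 3.3 (adjusted p = 1.46e-09). It also rose in ΔSCC4 (0.96 ± 0.19, adjusted p = 0.00943). NRCAM, which couples to NRP2, rose by 2.22 ± 0.19 and 1.29 ± 0.16 in the clones (adjusted p = 1.84e-06 and 0.00139) and fell by 1.49 ± 0.16 on that removal (adjusted p = 6.48e-06), and it fell in ΔSCC4 (-1.09 ± 0.25, adjusted p = 0.0198). L1CAM fell in both clones (-1.04 ± 0.19 and -1.53 ± 0.11), as did the VEGF receptor FLT1 (-1.14 ± 0.22 and -1.11 ± 0.15). Of 4 VEGF ligands tested, 1 passed in each clone (8.07% and 20.1% of all genes). This was VEGFC, which rose (2.58 ± 0.22 and 1.96 ± 0.13, adjusted p = 1.7e-06 and 8.03e-05), from 1.05 ± 0.210 to 6.43 ± 0.677 CPM in clone 3.3. In ΔSCC4, 2 of the 4 passed (9.49%), VEGFC higher (1.49 ± 0.23, adjusted p = 0.00194) and PGF lower (-0.90 ± 0.22, adjusted p = 0.0293). Of 4 plexins outside class A and D, 3 were tested in ΔSCC4 and 2 passed (9.49% of all genes). PLXNC1 fell (-1.07 ± 0.18, adjusted p = 0.00304) and PLXNB2 rose (0.62 ± 0.17, adjusted p = 0.0438). PLXNB3 passed the filter only where a ΔWAPL group was compared, and DESeq2 did not call it in clone 1.14, so its levels are a description. They were 0.208 ± 0.0455 and 0.317 ± 0.106 CPM in controls A and B and 1.22 ± 0.110 and 0.878 ± 0.144 CPM in clones 3.3 and 1.14.

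Of 23 effector genes downstream of the receptors, 1 passed in ΔWAPL 3.3 (8.07% of all genes), 7 in ΔWAPL 1.14 (20.1%), 2 in ΔSCC4 (9.49%) and none in ΔWAPL/ΔSCC4 by edgeR, where 5 had an unadjusted p under 0.05 and DESeq2 called 0. DPYSL3, a collapsin response mediator protein of the cytoskeleton, fell in ΔWAPL 3.3 (-1.54 ± 0.15, from 47.6 ± 2.54 to 16.6 ± 0.774 CPM) and rose in ΔSCC4 to 185 ± 17.2 CPM (1.95 ± 0.13, adjusted p = 9.21e-06). In ΔWAPL 1.14 its fall was -0.25 ± 0.07 (adjusted p = 0.0411). Of 4 proteases that cleave class 3 semaphorins, 1 passed in ΔSCC4 (9.49% of all genes), PCSK6, which rose (0.68 ± 0.14, adjusted p = 0.0117). In ΔWAPL 1.14, 2 passed (20.1%), FURIN and PCSK7, which fell slightly (-0.34 ± 0.06 and -0.28 ± 0.07). None passed in ΔWAPL 3.3 or ΔWAPL/ΔSCC4 by edgeR, where 0 and 2 had an unadjusted p under 0.05 and DESeq2 called 0.

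For the 3 members with the widest range of group means among those whose mean log2 CPM reached 1, the genes most alike over the 18 samples were named by Pearson's r of log2 CPM. The closest to SEMA3A were SPOCK3 (0.974), NCAM2 (0.971) and LRRC7 (0.96). For NRP2 they were an unnamed gene (ENSG00000267260, 0.957), PRKG2 (0.906) and ZDHHC22 (0.873), and for PLXNA2 they were COLGALT2 (0.929), DHRS2 (0.925) and FLVCR2 (0.912). The samples share their groups, sets and depth, so these values are a description of likeness across groups.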

How the data were processed

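The authors deposited raw read counts per gene for each of 18 polyadenylated, strand-specific RNA libraries. Per the submitters' processing notes, reads were aligned to hg19 with TopHat2 (2.0.9) and counted with HTSeq, and DESeq2 (1.10.1) was run by the authors. The HTSeq strand setting and annotation release are not given in the sources used here. HTSeq summary rows, 20.3% to 22.6% of each library's total, were left out. Ensembl identifiers were matched to the GENCODE annotation on GRCh37 (96.6% matched). None of the genes that overlap a member there is among the genes counted.

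Genes were kept with filterByExpr and tested with edgeR's quasi-likelihood test (4.0.16, R 4.3.3) on the samples of each comparison, with TMM scaling and Benjamini-Hochberg adjustment over all genes tested (threshold 0.05). SE was taken as |log2 fold change| over the root of F. CPM used TMM factors over all 18 samples, and log2 CPM a prior count of 2. Differences between effects were interaction terms in 12 samples. The procedure was tested on simulated counts. The members and lists were chosen with earlier results of these data known. Members are named throughout. Of other lists, up to 4 genes with the largest absolute change among those past the threshold against controls are eligible to be named, and MAP2 was named as a marker. Neighbours were coding genes within 1 Mb, and PCLO and GNAI1 were named after their values were seen.

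Replicate numbers paired the samples of ΔSCC4 and control A, where same-numbered samples deviated together (correlations of 0.675, 0.115 and 0.615). In ΔWAPL 1.14 against control B these correlations were weaker (0.049, 0.319 and 0.196). Each of the remaining pairwise comparisons held a negative one. Alternatives were DESeq2 1.42.0, its size factors, no filter, a minimum of 10 counts, 1 fit over 18 samples, pooled controls, a replicate block and leaving out each replicate. No libraries held identical counts.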

Additional observations from a re-analysis of the deposited data

Results flagged for a closer look

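The effect of WAPL loss on NRP2 differed between the clones, by 2.09 on the log2 scale (clone 3.3 minus clone 1.14), tested as an interaction. The gene fell in clone 1.14 and not in clone 3.3, and it was also the member in which the unedited sets differed, by 1.42, so clone and set cannot be told apart.

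The effect of SCC4 loss differed between cells without and with WAPL for 6 members, with differences of -1.50 for SEMA3A, 0.94 for SEMA3D, -1.12 for SEMA3E, -1.05 for NRP1, -0.94 for NRP2 and -1.09 for PLXNA2. SEMA3D fell less on SCC4 loss without WAPL, and SEMA3A fell more. DESeq2, the replicate block and a minimum of 10 counts each left 4 members, without SEMA3D and NRP2, whose calls were also lost in 8 and 9 of the 12 omissions of a single sample. For NRP1, NRP2 and PLXNA2 the rise seen with WAPL present did not pass the test without it.

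Over the 6 unedited controls, each of the 9 measured members was also examined for a sample far from the rest by Dixon's criterion, which picks out about 1 group in 20 by chance, and none was. The 6 samples pool both sets, which differed in NRP2, so a sample unlike only its own set can go unseen. The result therefore does not bear on the calls that changed without control B replicate 3.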

How the results depend on the processing

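Over all settings, 883 of the members' fold changes kept their direction and side of the threshold, 71 lost a call, 16 gained one and 31 changed sign. Genes past the threshold numbered 1753 in ΔWAPL 3.3 with 1 fit over 18 samples (1008 in the pairwise fit), 2556 in ΔSCC4 with that fit, 2718 with the 6 controls pooled and 5754 with the replicate block (1186), 142 between the control sets by DESeq2, 127 without a filter, 408 with 1 fit and 162 with the block (80), and 211 for the clone difference with a minimum of 10 counts and 173 with the block (339). Members past it numbered 1 by DESeq2 and 4 with 1 fit or pooled controls in ΔWAPL 3.3, and 3 with either in ΔWAPL 1.14. The cause was not tested. Outside ΔSCC4, where pairing by number was weaker or not seen, the block gave 767 genes in ΔWAPL 3.3, 3030 in ΔWAPL 1.14, 944 in ΔWAPL/ΔSCC4 against controls and 1816 against ΔWAPL 3.3, and 1287 for the SCC4 difference. In ΔSCC4 it changed no member call besides SEMA3E and PLXNA1.

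Signs changed for SEMA3E in ΔWAPL 3.3 (0.00, pooled controls), NRP2 there (0.02 by DESeq2, 0.01 with its size factors, 0.00 without a filter, 0.01 with 1 fit), SEMA3D in ΔWAPL 1.14 (-0.14, pooled controls) and, in ΔWAPL/ΔSCC4, NRP2 (-0.75, pooled controls) and PLXNA1 (0.01 with the block, 0.03 with pooled controls).

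Leaving out single replicates gave 686 to 1180 genes in ΔWAPL 3.3, 1415 to 4820 in ΔWAPL 1.14 (4820 without control B replicate 3, 1523 without control B replicate 1, 1415 and 1473 without its own replicates 1 and 3), 662 to 2317 in ΔSCC4 (without control A replicate 2 and 1), 586 to 1552 in ΔWAPL/ΔSCC4 (586 without its replicate 1, 634 and 1552 without control A replicates 2 and 1), 861 to 1805 against ΔWAPL 3.3 (861 without ΔWAPL 3.3 replicate 2), 0 to 107 between controls (9, 0 and 22 without control A replicate 1, control A replicate 2 and control B replicate 1) and 218 to 372 for the clone difference (218 without ΔWAPL 1.14 replicate 1). Members numbered 1 to 4, 3 to 8, 4 to 7, 2 to 7, 3 to 4 and 0 to 2 in the first 6 of these. Signs changed over -0.24 to 0.04 (SEMA3E), -0.20 to 0.09 (NRP2) and -0.16 to 0.14 (PLXNA1) in ΔWAPL 3.3, -0.32 to 0.33 (SEMA3C) and -0.03 to 0.86 (SEMA3D) in ΔWAPL 1.14, -0.15 to 0.05 (SEMA3F) in ΔSCC4, -0.13 to 0.12 (PLXNA1) in ΔWAPL/ΔSCC4, -0.09 to 0.19 (SEMA3F) and -0.15 to 0.13 (PLXNA1) against ΔWAPL 3.3, -0.60 to 0.06 (SEMA3C) and -0.19 to 0.04 (PLXNA1) between controls, -0.19 to 0.10 (NRP1) for the clone difference and -0.02 to 0.28 (SEMA3F) for the SCC4 difference. All 108 level values moved by less than 1 SD under either scaling. With 1 to 44 counts, SEMA3C was the member most limited by depth.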
